A study of Mus musculus with 14 samples.

Results

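The genes described here encode the nuclear subunits of the mitochondrial respiratory chain and of ATP synthase. They were chosen by name: symbols that begin with Ndufa, Ndufb, Ndufc, Ndufs, Ndufv, Uqcr, Cox4i, Cox5, Cox6, Cox7, Cox8 or Atp5, without Cox6a2, pseudogenes and the Ndufaf assembly factors. The rule found 80 genes among the 20284 genes named on the larger array design. A further 3 protein-coding genes of the RefSeq table met the rule and had no probe named here (Ndufb1, Ndufb4b and Ndufb4c). By complex, the 80 members were 36 of complex I, 8 of complex III, 19 of complex IV and 17 of complex V.

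Their RNA was measured on single-colour arrays in 7 groups of sorted C57BL/6 mouse cells, with 2 arrays a group. Granulocyte-monocyte progenitors (GMP, CD117+ CD16/32+ cells without lineage markers, IL-7R, Sca-1 or CD115) came from the bone marrow of IRF8KO and of wild-type mice; IRF8 is a transcription factor needed for several dendritic cell and monocyte lineages. No other group carried the IRF8 knockout. Bone marrow also gave neutrophils (Neu, CD11b+ Ly6Ghi), the common progenitors of dendritic cells (CDP, Lin- IL-7R- Sca-1- CD117int CD115+ CD135+) and the precursors of classical ones (pre-cDC, Lin- CD11c+ MHC-II- CD135+ CD172a+). Spleen gave mature classical dendritic cells (cDC) of the CD8+ type (CD11c+ MHC-II+ CD4- CD8+) and of the CD4+ type (CD11c+ MHC-II+ CD4+ CD8-). Cells were enriched on magnetic beads and then sorted by flow cytometry, except neutrophils, which were sorted by flow cytometry only, and CD4+ cDC, which were purified on beads only. The labels give no age of the mice, do not say how IRF8 was inactivated and do not say whether the 2 arrays of a group came from separate animals, so p-values measure the spread between these arrays, which may be technical.

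The respiratory chain passes electrons from NADH through complex I, or from succinate through complex II, to ubiquinone, then through complex III and cytochrome c to complex IV, which reduces oxygen. Complexes I, III and IV pump protons across the inner mitochondrial membrane, and ATP synthase, complex V, uses their return to make ATP. Each of these complexes joins a few catalytic subunits, some of them encoded in mitochondrial DNA, to many small accessory subunits encoded in the nucleus. Mature neutrophils are known for relying mostly on glycolysis and for holding few mitochondria, while dividing progenitors and dendritic cells respire more. The promoters of many of these genes are known targets of the transcription factors NRF1, GABP (an ETS-family factor), YY1 and ERRα.

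Because the members are known for shared promoter elements, their promoters were searched for short motifs on both strands. Of the 80 members, 66 matched a RefSeq promoter window of assembly GRCm38.p6 (250 bases before to 50 after the annotated start, 300 bases in all, 71 windows). The NRF1 core CGCATGCG stood in the windows of 9 of the 66 members (13.6%), against 2.07% of the 27025 genes with a window. The ETS core CCGGAAG stood in 15 members (22.7%, against 9.93% of all genes) and the YY1 core AAGATGGCG in 7 (10.6%, against 1.64%). The ERR site AAGGTCA stood in 7 members (10.6%, against 5.38%) and TATAAA in 8 (12.1%, against 15.7%). None of these motifs holds another as a part of itself. The 27025 genes were all those with a window, not matched to the members in base composition. The differences between the shares were not tested. The windows below are those of 4 members with the NRF1 core: Atp5g2, a c-ring subunit, and Uqcr11, an accessory subunit of complex III, whose RNA was lower in neutrophils than in WT GMP, and Atp5l and Atp5j, a membrane and a peripheral stalk subunit of ATP synthase, whose RNA was higher. Capitals mark every match to the 5 motifs, on the strand shown or on the other. The windows lie on the minus strand at chr15:102670998-102671297 (Atp5g2), chr10:80406772-80407071 (Uqcr11), chr9:44920693-44920992 (Atp5l) and chr16:84834927-84835226 (Atp5j, the window of 2 that holds a motif).
Atp5g2: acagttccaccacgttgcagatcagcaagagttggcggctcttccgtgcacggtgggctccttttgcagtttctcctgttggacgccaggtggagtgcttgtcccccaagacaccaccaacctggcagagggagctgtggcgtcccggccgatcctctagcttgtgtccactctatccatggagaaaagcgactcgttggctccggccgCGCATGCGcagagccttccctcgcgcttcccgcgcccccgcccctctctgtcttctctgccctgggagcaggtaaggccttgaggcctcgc
Uqcr11: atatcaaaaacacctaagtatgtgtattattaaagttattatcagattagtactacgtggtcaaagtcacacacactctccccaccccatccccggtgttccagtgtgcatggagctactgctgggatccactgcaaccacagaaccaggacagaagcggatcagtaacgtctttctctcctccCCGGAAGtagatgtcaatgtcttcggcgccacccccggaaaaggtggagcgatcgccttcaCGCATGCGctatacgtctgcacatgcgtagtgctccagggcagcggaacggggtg
Atp5l: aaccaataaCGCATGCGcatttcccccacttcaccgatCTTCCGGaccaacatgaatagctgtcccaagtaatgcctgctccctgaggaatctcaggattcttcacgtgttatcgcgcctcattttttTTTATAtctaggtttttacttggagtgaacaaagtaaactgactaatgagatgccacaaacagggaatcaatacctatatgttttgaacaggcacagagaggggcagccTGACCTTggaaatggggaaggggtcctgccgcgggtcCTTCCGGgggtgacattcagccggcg
Atp5j: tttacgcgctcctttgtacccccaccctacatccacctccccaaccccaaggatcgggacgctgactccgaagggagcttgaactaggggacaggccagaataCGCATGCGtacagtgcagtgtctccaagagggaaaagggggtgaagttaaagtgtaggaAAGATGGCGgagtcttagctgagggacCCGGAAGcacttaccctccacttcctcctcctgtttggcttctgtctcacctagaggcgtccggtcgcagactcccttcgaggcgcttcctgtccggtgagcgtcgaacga
In neutrophils against WT GMP, the 9 members with the NRF1 core split into 5 higher and 4 lower, and the 15 with the ETS core into 11 higher and 4 lower, where 46.9% of all genes tested were higher and 44.8% lower. Those with the YY1 core split into 4 higher and 3 lower, with the ERR site into 5 and 2, and with TATAAA into 5 and 1. The groups are small and share members, and nothing is read from these splits. A match is a description of the letters in these windows and not a measured binding site.

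Levels are given as log2 of the processed signal minus the array's 75th percentile, so that 0 is the 75th percentile of an array's signal. A member's level is compared only with itself between groups. On this scale 76 of the 80 members were well above background on all 12 arrays of the larger design, which hold every group except CD4+ cDC. Cox8b, a heart and muscle isoform, was above background on 1 array alone, a neutrophil array with a level of -0.87 beside -4.96 on the other. Cox7b2, Cox8c and Ndufa4l2, all isoforms known from restricted tissues, were above background on none of the 12. For the 76 measured members, the median SD between the 2 arrays of a group was 0.0348, and the largest was 0.465, for Cox7a1 in neutrophils.

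The array data carried limits that bear on every comparison. Brightness differed between arrays: the 75th percentile of signal lay at 88.8 and 89.2 on the CDP arrays, 148 to 315 on the Neu, pre-cDC and CD8+ cDC arrays and 509 to 582 on the 4 GMP arrays, and 40.1% to 54.2% of probes were above background on the 12 arrays. IRF8KO and WT GMP shared a slide, and CD8+ cDC and Neu shared another, while CDP and pre-cDC each lay on a slide of their own. For CDP against WT GMP, pre-cDC against CDP, CD8+ cDC against pre-cDC and Neu against WT GMP, slide and group cannot be told apart. The same holds for pre-cDC against WT GMP. Marker lists set the 6 groups of the larger design apart to unlike degrees. Summed neutrophil markers (log2) reached 12.96 and 13.06 in Neu, against 7.03 to 8.50 in the other groups. Summed CD8+ cDC markers were 7.42 and 7.46 in CD8+ cDC, against at most 3.80 elsewhere. Of these, Xcr1 and Cd8a were above background on both arrays of CD8+ cDC alone, but Clec9a and Batf3 also in CDP, pre-cDC and Neu. Summed CDP markers were 8.50 to 8.55 in CDP, against at most 7.54 elsewhere. Summed GMP markers were 10.61 to 10.65 in WT GMP but also 10.18 to 10.21 in CDP. Those of pre-cDC were 6.74 to 6.77 in pre-cDC and higher, 7.57 to 7.59, in CD8+ cDC. The Irf8 probe was brighter on the arrays labelled IRF8KO (6.03 and 5.98) than on the WT GMP arrays (4.61 and 4.70; difference 1.35 ± 0.080 SE, limma adjusted p = 4.70e-05); its place in the gene is not known here, so it does not check the deletion. In bulk RNA, fewer cells of a type and less RNA per cell cannot be told apart.

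Across the 6 groups, the highest level of most members on this scale lay in CDP and the lowest in neutrophils, pre-cDC or WT GMP. Of the 76 measured members, 65 had their highest group mean in CDP, 8 in Neu, 2 in CD8+ cDC (Cox7a2l and Cox7c) and 1 in WT GMP (Ndufb2). The share of all genes highest in CDP was not counted. The median of 8716 genes was itself highest on the CDP arrays (2.57 and 2.58, against 2.04 to 2.23 on the others). For Cox7c and Cox7a2l, another probe fell more from CDP to pre-cDC (-1.60 and -0.80) than it rose from pre-cDC to CD8+ cDC (0.93 and 0.67). On those probes CDP lay above CD8+ cDC. The lowest group mean was in Neu for 30 members, in pre-cDC for 21, in WT GMP for 17 and in IRF8KO GMP for 5. The distance between a member's highest and lowest group mean had a median of 1.67 on the log2 scale. It was widest for Ndufab1, the mitochondrial acyl carrier protein (3.92), then for the c-ring gene Atp5g2 (3.55), Cox6b2 (3.46), Ndufa12 (3.42) and Atp5g1 (3.37), and each of these had its lowest mean in Neu. It was narrowest for Cox5b (0.861), Uqcrc2 (1.03), Atp5b (1.07), Atp5j (1.11) and Ndufb6 (1.13).

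**Figure D1:**
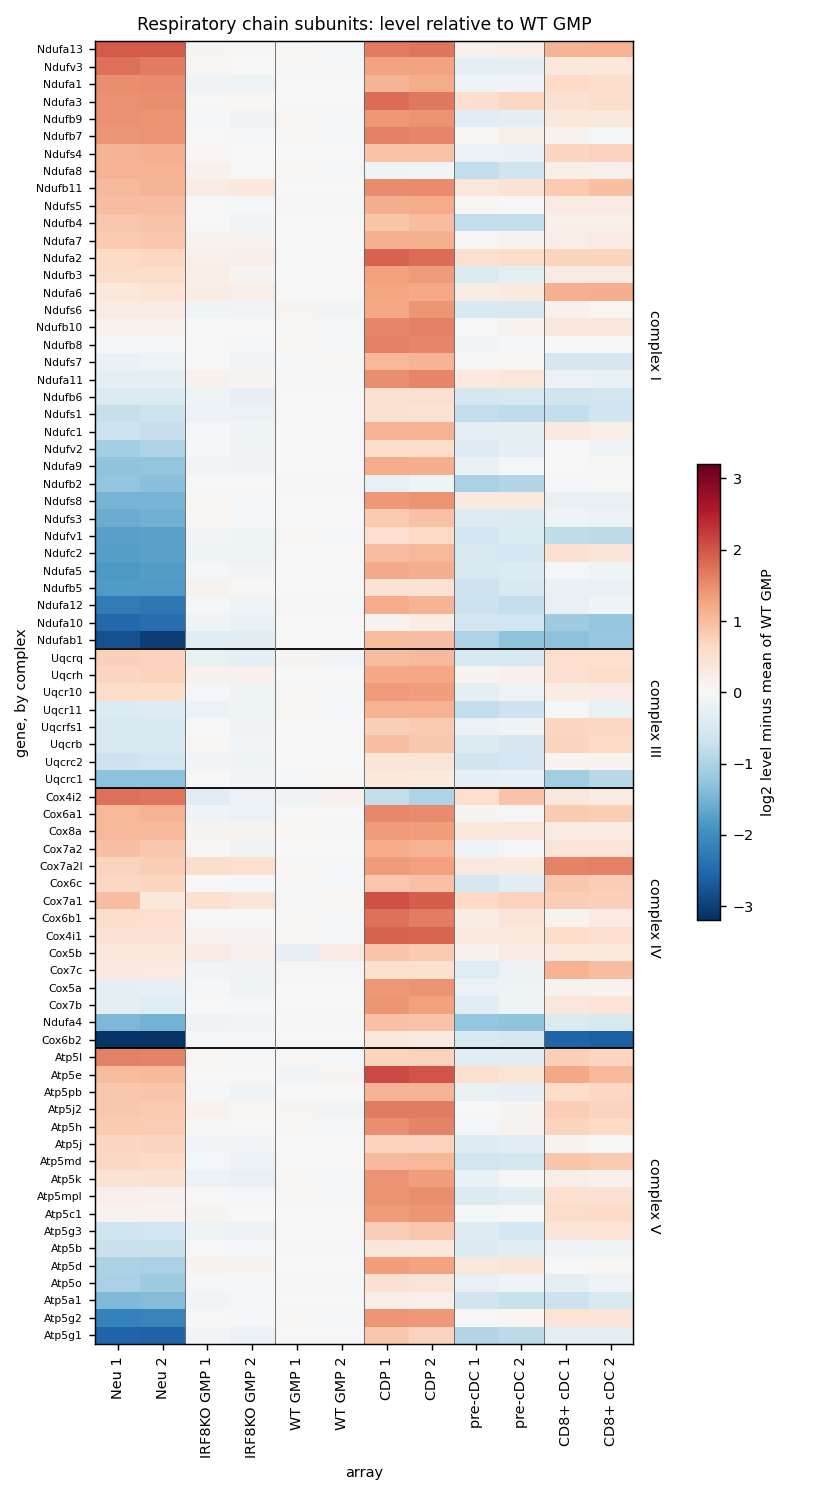
Colour map of 75 measured members (rows, grouped by complex and sorted by their change in neutrophils) on the 12 arrays of the larger design (columns, by group), as log2 level minus the WT GMP mean. Most rows are highest in CDP, on a scale where the median of all genes was also highest there. The neutrophil columns divide within each complex, with 38 of all 76 members called higher and 34 lower than in WT GMP (46.9% and 44.8% of all genes tested).

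Neutrophils against WT granulocyte-monocyte progenitors divided the subunits. Of 76 members tested, 38 were higher and 34 lower in Neu, where 46.9% of all 12520 genes tested were higher and 44.8% lower, so the counts lay near the background in both directions. A member was called higher or lower here and below at a Benjamini-Hochberg adjusted p under 0.05 from limma, adjusted over all genes tested. The members' median change was 0.20, against 0.073 over all genes. The 2 groups did not overlap for any of the 76. Overlap was not counted over all genes, here or below, so these counts have no background and nothing is read from them. Members of the same complex lay on both sides, and the difference between parts of the complexes was not tested. The comparison crosses slides, and neutrophils and WT GMP had 2 arrays each.

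Core subunits were mostly lower in neutrophils. The 16 members called core here include the iron-sulfur and flavin subunits of complex I and their neighbours (among them Ndufs1, Ndufs3, Ndufs7, Ndufs8, Ndufv1 and Ndufv2), the core and Rieske proteins of complex III (Uqcrc1, Uqcrc2 and Uqcrfs1), Cox4i1, Cox5a and Cox5b of complex IV, whose catalytic subunits are encoded in mitochondrial DNA, and the α, β and γ subunits of ATP synthase (Atp5a1, Atp5b and Atp5c1). Of these, 13 were lower and 1 was higher in Neu (median change -0.70), while of the 60 other measured members 37 were higher and 21 lower (median 0.59). Each of the core subunits of complex I named here was lower. Ndufv1, the flavin-binding subunit through which NADH electrons enter, stood at 3.95 and 3.97 in Neu, against 5.71 and 5.66 in WT GMP (change -1.72 ± 0.072 SE, adjusted p = 1.17e-07). Ndufs3, a scaffold of the matrix arm, stood at 3.43 and 3.49 in Neu, against 5.05 and 5.02 in WT GMP (-1.57 ± 0.067). Ndufs8, an iron-sulfur subunit, stood at 2.11 and 2.12 in Neu, against 3.59 and 3.62 in WT GMP (-1.49 ± 0.065). Ndufs7, which carries the last iron-sulfur centre before ubiquinone, had the smallest fall among those named, at 5.45 and 5.49 in Neu, against 5.62 and 5.70 in WT GMP (-0.18 ± 0.062, adjusted p = 0.0242), and its call was lost without WT GMP array 2 or Neu array 1.

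In complexes III and V the core subunits also fell, apart from Atp5c1. Uqcrc1, a core protein of complex III, was at 3.50 and 3.50 in Neu, against 4.78 and 4.85 in WT GMP (-1.32 ± 0.087), and Uqcrc2 and Uqcrfs1, the Rieske iron-sulfur protein, changed by -0.62 and -0.50. Atp5a1, the α subunit of the F1 head of ATP synthase, was at 5.24 and 5.26 in Neu, against 6.66 and 6.66 in WT GMP (-1.41 ± 0.074). Atp5b, the catalytic β subunit, was at 7.01 on both Neu arrays, against 7.76 and 7.68 in WT GMP (-0.71 ± 0.063). The γ subunit gene Atp5c1, which forms the rotating central stalk, gave no call with its brightest probe (0.09 ± 0.061, adjusted p = 0.216). Its second probe gave a change of 0.63. Complex IV differed from these in its values: Cox4i1, the common isoform of subunit 4, was higher in Neu, at 7.22 on both arrays, against 6.79 and 6.73 in WT GMP (0.46 ± 0.056), Cox5a was lower (-0.29 ± 0.061), and Cox5b gave no call, with 5.78 and 5.81 in Neu, against 5.20 and 5.70 in WT GMP.

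The c ring had the lowest median change among the parts of ATP synthase in neutrophils (-2.15). Atp5g1, Atp5g2 and Atp5g3 are known to encode the same mature c subunit with different import sequences. Atp5g1 stood at 4.09 and 4.08 in Neu, against 6.68 and 6.64 in WT GMP (5.94-fold lower). Atp5g2 stood at 5.38 and 5.40 in Neu, against 7.58 and 7.50 in WT GMP (4.43-fold lower). Atp5g3 stood at 5.77 and 5.78 in Neu, against 6.39 and 6.40 in WT GMP (1.54-fold lower). All 3 were called lower by limma (adjusted p = 1.44e-08, 1.58e-08 and 6.00e-05). The arrays of the 2 groups did not overlap, which was so for every member tested. The small membrane subunits of ATP synthase went the other way: all 5 were called higher on this scale, though not all of them on others, led by Atp5l, subunit g, at 7.76 and 7.74 in Neu, against 6.20 and 6.11 in WT GMP (1.60 ± 0.069). Its other 4 probes gave changes of 1.50 to 1.59. The others were Atp5j2 (0.85), Atp5md (0.64), Atp5k (0.48) and Atp5mpl (0.16, adjusted p = 0.0482). Of the 4 peripheral stalk genes, which hold the head still against the rotor, Atp5pb, Atp5h and Atp5j were higher (0.87, 0.81 and 0.70) and Atp5o was lower (-1.09).

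Subunits of complex I lay on both sides within both arms, as did all genes tested (46.9% higher and 44.8% lower). The matrix arm, which holds the electron path, had 6 of 16 members higher and 10 lower in Neu (median -0.87), and the membrane arm, which holds the proton pumps, had 10 of 19 higher and 7 lower (median 0.60). The largest rise among all members was that of Ndufa13, also known as GRIM-19, a membrane arm subunit. It stood at 8.36 and 8.37 in Neu, against 6.48 and 6.35 in WT GMP (3.88-fold higher, change 1.96 ± 0.067, adjusted p = 3.75e-08). Ndufv3, a small subunit beside the flavin site, stood at 7.34 and 7.25 in Neu, against 5.62 and 5.54 in WT GMP (1.72 ± 0.063). Ndufa1, Ndufa3, Ndufb9, Ndufb7 and Ndufs4 rose by 1.50, 1.47, 1.45, 1.43 and 1.12. The lower members included Ndufab1, which also carries acyl chains for mitochondrial fatty acid and lipoate synthesis. It stood at -1.96 and -2.16 in Neu, against 0.84 and 0.89 in WT GMP (7.57-fold lower, -2.92 ± 0.11). Ndufa10, a membrane arm subunit related to nucleoside kinases, stood at 1.38 and 1.46 in Neu, against 3.91 and 3.89 in WT GMP (5.57-fold lower, -2.48 ± 0.073). Ndufa12 changed by -2.28, Ndufa5 by -1.81, Ndufb5 by -1.81 and Ndufc2 by -1.74. Ndufb11, called higher with its brightest probe (1.06), had a second probe with -0.94, so its direction depended on the probe; likewise a second probe of Ndufb6 gave 0.13 beside a call of -0.46, and 1 of 3 probes of Cox7a2l gave -0.04 beside a call of 0.76.

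**Figure D2:**
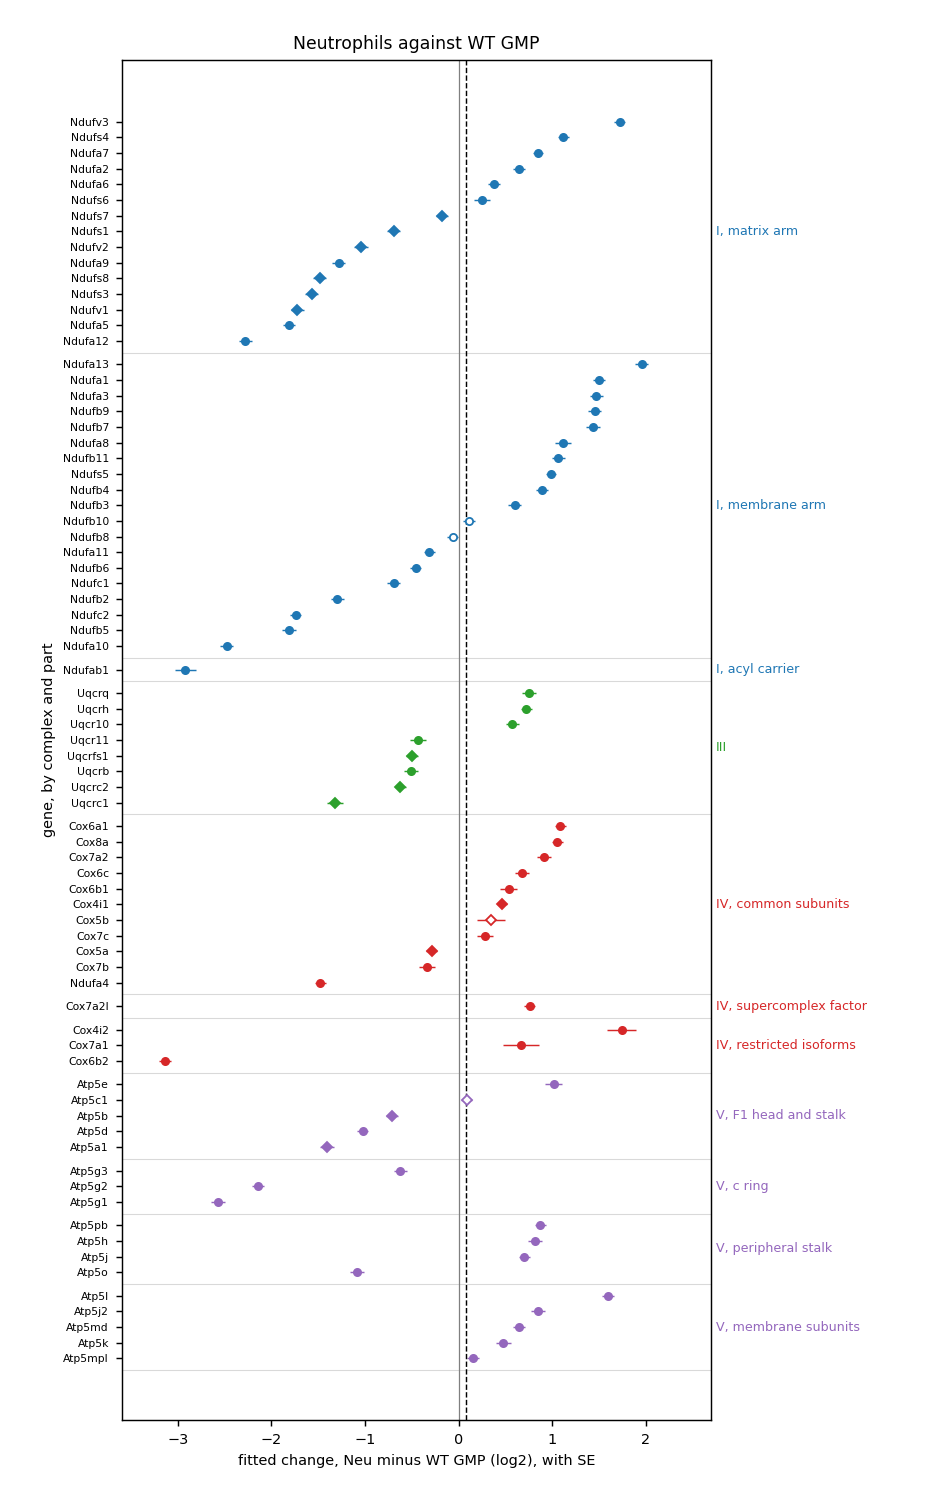
Change in neutrophils minus WT GMP (log2, horizontal axis, bars are SE of the limma fit) for 75 members, placed by its part of the chain; diamonds are core subunits, open symbols gave no call and the dashed line is the median of all genes tested (0.073). The 3 c-ring genes lie at -2.57, -2.15 and -0.62, the 5 membrane subunits of ATP synthase between 0.16 and 1.60, and most core subunits below 0.

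How the arrays were scaled moved the split between higher and lower members but left most core subunits lower, although Cox4i1 turned to -0.09 with array medians. Under quantile normalization 29 members were higher and 41 lower in Neu, under normexp and quantile normalization 28 and 41, with the values of the authors' deposited table, 30 and 41, with scaling on array medians 16 and 38, and with the percentile taken over probes detected on all arrays 30 and 38. In the same order, 42.5%, 42.8%, 45.1%, 35.6% and 40.7% of all genes tested were higher, and 48.8%, 49.0%, 46.6%, 50.8% and 50.3% lower. Under these scalings the members' median lay below 0 (-0.37 under quantile normalization), and the median of all genes moved to -0.48 with array medians, -0.30 with the percentile over detected probes and -0.20 under quantile normalization. The core subunits gave 0 or 1 higher and 14 lower in each of the 5 scalings, and the 3 c-ring genes were lower in each. The 5 membrane subunits of ATP synthase were not called higher as a whole under these scalings: 1 to 3 were higher and 1 lower. The other mitochondrial lists moved as follows in the same comparison.

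Most lists of genes of other mitochondrial functions held more lower than higher genes in neutrophils against WT GMP, and the fusion and fission list held more higher ones. Of 19 tricarboxylic acid cycle genes, 16 were lower and 2 higher (median -1.57): Idh3a, a subunit of NAD-dependent isocitrate dehydrogenase, was not above background in Neu and at least 145-fold lower, Idh2 changed by -6.46, and Mdh2, malate dehydrogenase, was higher (1.38). Of 76 mitochondrial ribosome genes, 61 were lower and 9 higher (median -1.25), with Mrps2 at least 40.1-fold lower and Mrpl33 higher (2.52). Of 44 assembly factors of the chain, 28 were lower and 13 higher (median -1.17), and Ndufaf4, a complex I assembly factor, changed by -6.07. Of 26 import genes, 18 were lower and 6 higher (median -1.95), with Timm9, a chaperone of the intermembrane space, at least 42.5-fold lower. Of 14 genes of mitochondrial DNA and its expression, 10 were lower and 4 higher (median -2.22), and of 8 carriers and uncoupling genes 5 were lower and 3 higher (median -0.63), with Ucp3 and Ucp2 higher (1.72 and 1.63) and Slc25a4, an ADP/ATP carrier, lower (-3.61). Of 8 fusion and fission genes 5 were higher and 3 lower (median 0.68), led by the fission factors Fis1 and Mff (2.31 and 1.83), while Dnm1l, a dynamin-related protein of fission, was lower (-1.92). Of 3 pyruvate dehydrogenase kinase genes tested 2 were lower and none was higher. Cycs, cytochrome c, and Cyc1, the cytochrome c1 subunit of complex III that the naming rule leaves out, fell by 1.83 and 1.77. Among complex II genes, which the rule also leaves out, Sdhb was higher (0.94), and Sdhc and Sdha were lower (-1.08 and -0.84). The difference between the members' split of 38 higher and 34 lower and these counts was not tested.

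Of 11 regulators of respiratory genes, 4 were higher and 4 lower in the same comparison (median -0.04). Esrra, which encodes ERRα, and Yy1 were higher in Neu (1.996 and 1.46). Myc, a growth regulator, was not above background in Neu and at least 130-fold lower, and Ppargc1b, a coactivator of respiratory genes, was likewise at least 3.36-fold lower. All 24 cell cycle genes tested were lower (median -3.61), and the array medians of that list were 0.573 and 0.558 in Neu, against 4.55 and 4.52 in WT GMP. The summed T and NK cell markers were 4.13 and 4.14 in Neu, against 0.40 and 0.50 in WT GMP, with 2 of 5 markers above background on both Neu arrays and 1 of 5 on both WT GMP arrays; Ncr1 and Klrb1c were above background in neither. The summed mast cell and basophil markers were -0.31 and -0.29 in Neu, with 1 of 3 above background, against 5.97 and 6.03 in WT GMP, with 3 of 3. The part of these in the members' changes was not tested.

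CD8+ splenic cDC, set against neutrophils on the same slide, showed core and c-ring subunits higher. Of 76 members, 37 were higher in CD8+ cDC and 26 lower, where 42.4% of all 12817 genes were higher and 42.8% lower; the members' median was 0.13, against -0.056 over all genes. In the fit of these 4 arrays alone, which lie on 1 slide, 33 were higher and 22 lower, against 40.5% and 42.1% of all genes tested. The 2 groups did not overlap for 74 of the 76, a count not made over all genes. Of the 16 core subunits 12 were higher and 1, Ndufs7, was lower (-0.35, but 0.09 under quantile normalization), and all 3 c-ring genes were higher. Atp5g2 stood at 7.98 and 7.94 in CD8+ cDC, against 5.38 and 5.40 in Neu (5.94-fold higher, 2.57 ± 0.063, adjusted p = 8.66e-09). Atp5g1 changed by 2.27, Ndufc2, a membrane arm subunit, by 2.19 and Ndufa12 by 2.09. On the other side, Cox4i2, an isoform of subunit 4 known from lung, was lower in CD8+ cDC, at -0.25 and -0.34, against 1.16 and 1.10 in Neu (-1.42 ± 0.15). Ndufb7, Ndufv3 and Ndufb9 also fell, by 1.41, 1.36 and 1.11. With the other scalings the counts were 45 higher and 20 lower under quantile normalization and in the authors' deposited table, 43 and 14 on array medians, and 48 and 14 with the percentile over detected probes. Over all genes tested, the shares higher and lower were 46.4% and 38.5% under quantile normalization and 44.3% and 41.3% in the authors' deposited table. They were 45.6% and 33.3% on array medians, and 48.7% and 34.7% with the percentile over detected probes. Both comparisons with neutrophils share the Neu arrays, so the c-ring and core values in them are not independent of each other. Of 77 mitochondrial ribosome genes 60 were higher in CD8+ cDC and 11 lower (median 0.84), and of 24 cell cycle genes 23 were higher. The CD8+ cDC came from spleen and the Neu from bone marrow. The summed erythroid markers lay at 7.36 to 7.46 in CD8+ cDC, with 2 of 4 above background, against 2.59 to 2.67 in Neu, with 1 of 4. The summed red pulp macrophage markers lay at 4.17 to 4.78 in CD8+ cDC, against 2.42 to 2.58 in Neu, with 4 of 4 above background in both. The summed T and NK cell markers lay at 1.60 to 1.66 in CD8+ cDC, against 4.13 to 4.14 in Neu, with 2 of 5 above background in both. The part of these in the members' changes was not tested.

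Nearly all members were higher in CDP than in WT GMP on this scale. Of 76, 71 were higher in CDP and 2 lower, where 50.2% of all 11899 genes were higher and 26.2% lower. The members' median change was 1.13, against 0.29 over all genes. The arrays of the 2 groups did not overlap for any member, which was not counted over all genes. Of the core subunits 15 of 16 were higher (median 0.72), and of the others 56 of 60 (median 1.18). All 8 members of complex III, 33 of 36 of complex I, 14 of 15 of complex IV and 16 of 17 of complex V were higher. Atp5e, the ε subunit of the ATP synthase stalk, stood at 8.20 and 8.12 in CDP, against 6.02 and 6.17 in WT GMP (4.19-fold higher, 2.07 ± 0.089, adjusted p = 7.14e-07). Cox4i1 stood at 8.64 and 8.61 in CDP, against 6.79 and 6.73 in WT GMP (3.64-fold higher, 1.87 ± 0.056). Cox7a1, a heart and muscle isoform with levels near the array's 75th percentile, changed by 1.98 ± 0.19, and Ndufa2 by 1.83 ± 0.064. The 2 lower members were Cox4i2, at -1.37 and -1.60 in CDP, against -0.74 and -0.48 in WT GMP (-0.87 ± 0.15), and Ndufb2 (-0.20 ± 0.071, adjusted p = 0.0352), whose call was lost without CDP array 1 or WT GMP array 1. Ndufa8, Atp5a1 and Ndufa10 gave no call (-0.12, 0.18 and 0.18).

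The size of the CDP rise depended on the scaling. Under quantile normalization 53 members were higher in CDP and 10 lower (median 0.36, against 0.014 over all genes), under normexp and quantile normalization 52 and 11, with the values of the authors' deposited table, 53 and 11, and with the percentile over detected probes 58 and 6. Over all genes the main scaling called 5974 higher and 3113 lower, against 4482 and 4168 under quantile normalization and 3645 and 5409 with the percentile over detected probes. These counts were 4554 and 4386 under normexp and quantile normalization, and 4552 and 4122 in the authors' deposited table. The core subunits lost their common direction under quantile normalization, with 7 higher and 5 lower: Atp5b changed by -0.65, Uqcrc1 by -0.32 and Uqcrc2 by -0.25 there. The CDP arrays had the lowest signal of all arrays, and the part of this in the rise was not tested. For Atp5c1, Atp5l and Uqcrq, called higher in CDP with their brightest probe (1.39, 0.73 and 1.01), the lowest of the gene's other probes gave -0.72, -0.75 and -0.96.

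Other gene lists differed in their counts in CDP against WT GMP, where 50.2% of all genes were higher and the median of all genes was 0.29. Of 77 mitochondrial ribosome genes 63 were higher in CDP and 3 lower (81.8% higher, median 0.73). Of 44 assembly factors 25 were higher and 4 lower (56.8% higher, median 0.35), near the share over all genes. Of 19 tricarboxylic acid cycle genes 12 were higher and 2 lower (63.2% higher, median 0.41), led by Fh1, fumarase (1.50), with Suclg2, a succinyl-CoA ligase subunit, lower (-1.72). Of 24 cell cycle genes 20 were higher and 4 lower (median 1.18), and of 13 genes commonly used as references 11 were higher (median 0.76), led by Actb (1.90). Of 11 regulators of respiratory genes 3 were higher and 4 lower (median -0.03), of 4 complex II genes 2 were higher and none lower (median 0.16), and of 3 pyruvate dehydrogenase kinase genes 1 was lower and none higher. The summed mast cell and basophil markers lay at 0.93 to 1.05 in CDP, with 1 of 3 above background, against 5.97 to 6.03 in WT GMP, with 3 of 3. The summed erythroid markers lay at 0.35 to 0.43 in CDP, with 2 of 4 above background, against 3.22 to 3.23 in WT GMP, with 3 of 4. The part of the cell cycle, the reference genes, these markers and the slide in the members' rise was not tested.

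Nearly all members were lower in pre-cDC than in CDP. Of 76 members 74 were lower in pre-cDC and 1 higher, where 58.0% of all 11481 genes were lower and 24.6% higher; the members' median was -1.30, against -0.49 over all genes. No member's arrays overlapped between the groups, which was not counted over all genes. The largest fall was that of Ndufa4, first described in complex I and now known as a subunit of complex IV. It stood at 3.84 and 3.79 in pre-cDC, against 6.02 and 6.00 in CDP (4.56-fold lower, -2.19 ± 0.060, adjusted p = 4.49e-07). Ndufab1 changed by -2.13 ± 0.11, Ndufa12 by -1.87 ± 0.072 and Atp5mpl, a small proteolipid of ATP synthase, by -1.86 ± 0.064. Of the 16 core subunits 15 were called lower (median change -1.01), and all 16 were lower at an unadjusted limma p under 0.05. The single rise was Cox4i2, at -0.08 and 0.30 in pre-cDC, against -1.37 and -1.60 in CDP (1.60 ± 0.15). Of 77 mitochondrial ribosome genes 74 were lower in pre-cDC (median -1.21), of 19 tricarboxylic acid cycle genes 17 were lower (median -1.09), and of 24 cell cycle genes 18 were lower and 2 higher (median -0.75). The members' median moved with the scaling, to -0.62 under normexp and quantile normalization, -0.66 under quantile normalization, -0.63 in the authors' deposited table, -0.79 with the percentile over detected probes and -1.82 with array medians, where the medians of all genes were -0.19, -0.23, -0.21, 0.014 and -1.01 in the same order. Under these scalings 67 to 75 members were lower, against 37.6% to 69.6% of all genes tested. For Atp5c1, Atp5l and Uqcrq, called lower with their brightest probe (-1.40, -1.08 and -1.52), another probe of the gene gave 0.18, 0.33 and 0.71. The summed mast cell and basophil markers lay at 3.56 to 3.79 in pre-cDC, with 3 of 3 above background, against 0.93 to 1.05 in CDP, with 1 of 3, and their part was not tested. Both this comparison and that of CDP with WT GMP use the CDP arrays, so the rise in CDP and the fall in pre-cDC rest on the same 2 arrays of 1 slide.

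For that reason pre-cDC were also set directly against WT GMP, a comparison added after the data were seen. It leaves the CDP arrays out of the contrast. Pre-cDC and WT GMP also lay on different slides, so slide and group cannot be told apart here either. The other scalings and the fits without single arrays were not run for this comparison. Of 76 members 41 were lower in pre-cDC and 16 higher, where 44.5% of all 12040 genes were lower and 34.4% higher (members' median -0.24, against -0.14 over all genes). Ndufa4 was again lower, at 3.84 and 3.79 in pre-cDC, against 5.11 and 5.05 in WT GMP (-1.26 ± 0.060), followed by Ndufab1 (-1.13), Ndufb2 (-0.98) and Atp5g1 (-0.89). Cox4i2, Cox7a1, Ndufa3 and Ndufa2 were higher (0.72, 0.68, 0.60 and 0.55). The share of members called lower, 41 of 76, lay nearer to the background than in the comparison with CDP.

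Most members were higher in CD8+ cDC than in pre-cDC, and a few were lower. Of 76, 52 were higher in CD8+ cDC and 10 lower, where 39.2% of all 12597 genes were higher and 33.9% lower; the members' median was 0.47, against 0.078 over all genes. The 2 groups did not overlap for 69 of the 76, a count not made over all genes. Complex V had 14 of 17 members higher and 1 lower, complex III 7 of 8 higher and 1 lower, complex IV 9 of 15 higher and 2 lower, and complex I 22 of 36 higher and 6 lower. Atp5md, a membrane subunit that helps join ATP synthase into dimers, stood at 6.07 and 6.03 in CD8+ cDC, against 4.59 and 4.62 in pre-cDC (2.72-fold higher, 1.44 ± 0.064, adjusted p = 7.46e-07). Cox7c stood at 5.77 and 5.65 in CD8+ cDC, against 4.28 and 4.47 in pre-cDC (1.33 ± 0.082). Cox7a2l, known as a supercomplex factor, changed by 1.30 ± 0.060 and Cox6c by 1.27 ± 0.074. Supercomplexes were not measured here. The largest fall was that of Cox6b2, at 0.46 and 0.41 in CD8+ cDC, against 2.52 and 2.45 in pre-cDC (4.13-fold lower, -2.05 ± 0.062). Core subunits divided, with 8 of 16 higher and 5 lower (median 0.19). The lower ones included Uqcrc1 (-0.70), Ndufs7 (-0.59), Ndufs8 (-0.53) and Ndufv1 (-0.29), while Uqcrfs1 and Uqcrc2 rose most among the core (0.82 and 0.68). With array medians as the scale the counts were 54 higher and 3 lower, against 44.2% and 21.9% of all genes tested. Under quantile normalization they were 47 and 16, against 39.7% and 35.7%. For Ndufb11, Ndufb5 and Ndufv3, called higher with their brightest probe (0.49, 0.34 and 0.65), another probe gave -0.64, -0.48 and -0.79.

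Tissue and markers of other cell types also differed between these groups. The cDC came from spleen and the pre-cDC from bone marrow. The summed erythroid markers were 7.36 and 7.46 in CD8+ cDC, against 1.99 and 2.06 in pre-cDC, with 2 of 4 measured markers (Hba-a1 and Epor) above background in both groups and Klf1 in neither. The summed red pulp macrophage markers were 4.17 and 4.78 in CD8+ cDC, against -0.035 and 0.079 in pre-cDC, with 4 of 4 above background in CD8+ cDC and 1 of 4 in pre-cDC. Of 24 cell cycle genes 23 were lower in CD8+ cDC (median -1.54), of 44 assembly factors 25 were higher and 5 lower (median 0.34), and of 77 mitochondrial ribosome genes 40 were higher and 15 lower (median 0.23). Among regulators, Pprc1 and Esrra were higher (1.12 and 1.10), and Nrf1 and Gabpb1, a GABP subunit, were lower (-1.36 and -1.21). The part of these in the members' changes was not tested.

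**Figure D3:**
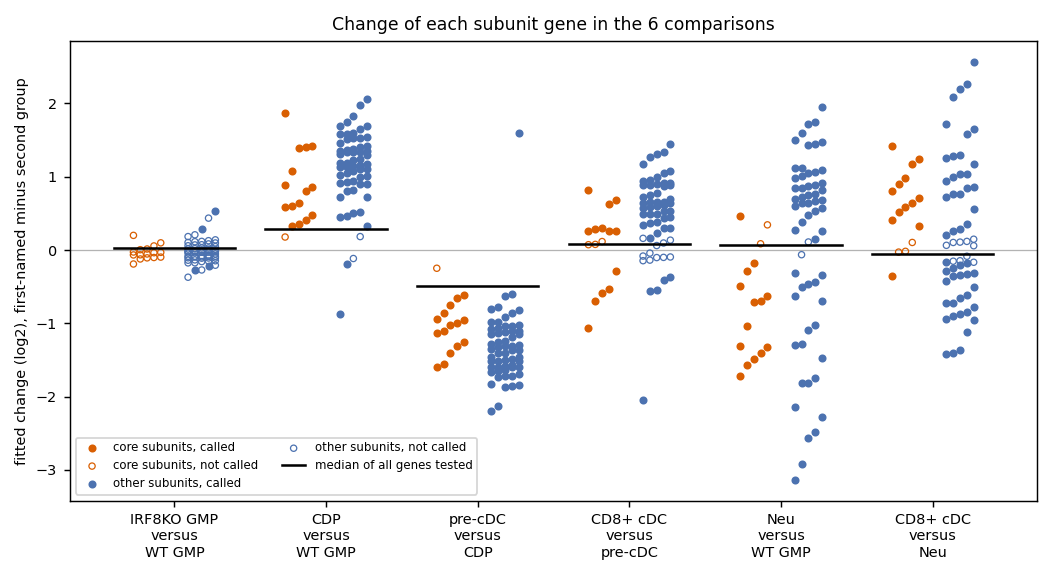
Change of each measured member (points, log2) in the 6 comparisons, with core subunits in orange and other members in blue, filled where called and open where not; the black bar is the median of all genes tested. Nearly all points lie above 0 in CDP against WT GMP and below 0 in pre-cDC against CDP, and the core subunits lie mostly below 0 in Neu against WT GMP (median -0.70).

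Few members were called between the arrays labelled IRF8KO GMP, on which the Irf8 probe was the brighter, and those of WT GMP. Of 76 members 2 were higher and 2 lower in IRF8KO GMP, below the background of 12.5% higher and 8.59% lower among all 12156 genes tested. The members' median change was -0.029, against 0.030 over all genes. The arrays of the 2 genotypes did not overlap for 44 of the 76. This was not counted over all genes, so nothing is read from it. The clearest rise was that of Cox7a2l, at 6.92 and 6.87 in IRF8KO GMP, against 6.39 and 6.34 in WT GMP (1.44-fold higher, 0.53 ± 0.060, adjusted p = 0.000890), and its other 2 probes gave 0.55 and 0.61. Ndufb11, a membrane arm subunit, was at 6.22 and 6.28 in IRF8KO GMP, against 5.97 and 5.94 in WT GMP (0.29 ± 0.070, adjusted p = 0.0243), with 0.50 on its second probe. The lower members were Uqcrq, an accessory subunit of complex III, at 5.69 and 5.62 in IRF8KO GMP, against 6.02 and 5.85 in WT GMP (-0.28 ± 0.073, adjusted p = 0.0345), and Ndufb6 (-0.22 ± 0.061, adjusted p = 0.0446). None of the 16 core subunits was called by limma at the adjusted threshold (changes of -0.19 to 0.20), 1 was lower (Ndufs1) at an unadjusted p under 0.05, and under quantile normalization 6 were called lower. Ndufab1 had the largest fall without a call (-0.37 ± 0.11, adjusted p = 0.0533).

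The number of small falls depended on the scaling: 21 members were lower under quantile normalization and 20 in the authors' deposited table, each with 2 higher, where 12.6% of all genes tested were lower on both scales; on these scales the share of members called lower lay above the background and not below it. No member was lower with array medians. Leaving out IRF8KO array 1, IRF8KO array 2 or WT array 1 left 1 member higher and 0 lower, and leaving out WT array 2 left 2 higher and 1 lower, Uqcrq; Cox7a2l kept its call each time. All arrays of this comparison lay on 1 slide, and the fit of those 4 arrays alone called 1 member higher and 1 lower. Of 24 cell cycle genes 11 were lower in IRF8KO GMP (median -0.28), and of 77 mitochondrial ribosome genes 1 was higher and 3 lower. The summed erythroid markers were -0.52 and -0.50 in IRF8KO GMP, against 3.22 and 3.23 in WT GMP, and those of mast cells and basophils were 4.55 and 4.59 in IRF8KO GMP, against 5.97 and 6.03 in WT GMP. In both lists all markers above background in WT GMP were so in IRF8KO GMP too (3 of 4 erythroid and 3 of 3 mast cell and basophil). Their part in the members' changes was not tested.

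Isoforms of the same subunit moved together in some comparisons and apart in others. Subunit 4 of complex IV has a common form, Cox4i1, and a lung form, Cox4i2. The group means of Cox4i1, from low to high, were 6.76 in WT GMP, 6.86 in IRF8KO GMP, 7.07 in pre-cDC, 7.22 in Neu, 7.33 in CD8+ cDC and 8.63 in CDP, and neither WT and IRF8KO GMP nor Neu and CD8+ cDC differed by a called amount. Cox4i2 had its lowest mean in CDP (-1.48), followed by IRF8KO GMP (-0.89), WT GMP (-0.61; no call between the genotypes), CD8+ cDC (-0.29), pre-cDC (0.11) and Neu (1.13). Their group means thus ran opposite ways in CDP, where Cox4i1 was highest and Cox4i2 lowest.

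Subunit 6b also has a common form, Cox6b1, and a form known from testis, Cox6b2. The 2 arrays of Cox6b2 read 2.95 and 2.97 in IRF8KO GMP, 3.04 and 2.99 in WT GMP, 3.38 and 3.30 in CDP and 2.52 and 2.45 in pre-cDC. They read 0.46 and 0.41 in CD8+ cDC and -0.13 and -0.11 in Neu, where the change against WT GMP was the largest among the 76 members (8.78-fold lower in Neu, -3.13 ± 0.062, adjusted p = 2.45e-09). The progenitor and precursor groups lay above both mature groups without overlap. Both mature groups shared a slide that held no other group, so slide and maturity cannot be told apart here. Cox6b1 was at 3.66 and 3.63 in Neu, against 3.16 and 3.06 in WT GMP (0.54 ± 0.090), so the 2 forms changed in opposite directions in that comparison.

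Subunit 7a has a heart and muscle form, Cox7a1, and a common form, Cox7a2. Cox7a1 had group means from -1.35 in WT GMP to 0.63 in CDP. It was least repeatable in Neu, where its arrays read -0.36 and -1.01. Its differences among Neu, pre-cDC and CD8+ cDC (means -0.69, -0.67 and -0.58) were not larger than this spread. Cox7a2 stood at 5.88 and 5.80 in Neu, against 4.94 and 4.91 in WT GMP (0.91 ± 0.075), and Cox7a1 was also called higher there (0.67). Cox7a1 and Cox7a2 were likewise both higher in CDP than in WT GMP (1.98 and 1.16) and both lower in pre-cDC than in CDP (-1.30 and -1.24). The 3 c-ring genes were all lowest in Neu, but Atp5g3 differed less between groups than Atp5g1 or Atp5g2, with a mean of 5.77 in Neu and 5.92 in pre-cDC. Ndufa4 stood at 3.63 and 3.58 in Neu, against 5.11 and 5.05 in WT GMP (-1.48 ± 0.060), and its isoform Ndufa4l2 was above background on no array of the larger design. Cox8a, the common form of subunit 8, was at 8.50 and 8.51 in Neu, against 7.51 and 7.39 in WT GMP (1.06 ± 0.063).

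**Figure D4:**
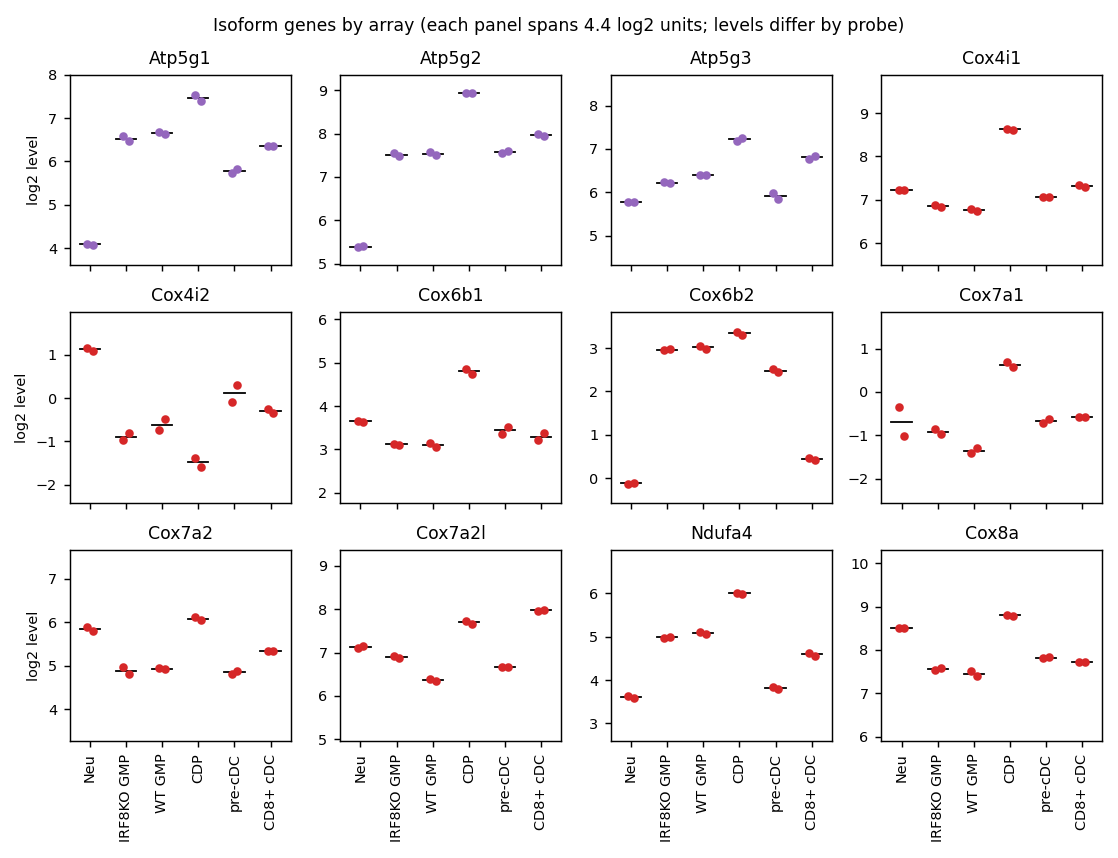
Levels of 12 members on each array (points; log2 signal minus the array's 75th percentile, with its own vertical axis for each gene) in the 6 groups of the larger design, with a line at each group mean. Cox6b2 lies at -0.13 to 0.46 in Neu and CD8+ cDC and at 2.45 to 3.38 in the other groups, and Atp5g1 and Atp5g2 are lowest in Neu.

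CD4+ cDC were hybridised to a smaller array design, so they were set beside CD8+ cDC without a test, on a scale taken over the probes that both designs share. On that scale 75 members were above background on both CD4+ cDC arrays. The CD4+ minus CD8+ difference had a median of -0.66 over these 75 (range -2.12 to 0.68, with 7 above 0), against a median of -0.072 over 11822 genes. A difference of more than 1 in either direction was seen in 25.3% of the members and in 31.2% of all genes. The lowest differences were those of Ndufb2 (1.03 and 1.16 in CD4+ cDC, against 3.21 and 3.23 in CD8+ cDC), Cox7c (2.74 and 2.66, against 4.83 and 4.71) and Atp5o (1.84 and 1.18, against 3.45 and 3.56). The highest was that of Cox6b2 (0.13 and 0.22 in CD4+ cDC, against -0.48 and -0.53 in CD8+ cDC). Array design, slide and purification on beads differ along with the cell type and cannot be told apart from it.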

How the data were processed

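RNA from 14 samples was labelled with one colour and hybridised to Agilent arrays, 12 of a larger and 2 (CD4+ cDC) of a smaller design. Per the file headers, Feature Extraction 10.7.3.1 made the deposited intensity values, including a background-subtracted processed signal. Here log2 of the processed signal minus its 75th percentile per array was used; control spots and outlier flags were left out, and spots of a probe were averaged. Probes were named through RefSeq accessions of GRCm38.p6 (26762 probes, 20284 genes), and the brightest probe stood for a gene.

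Differences were tested with limma 3.58.1 in R 4.3.3 on the 12 arrays together (1.29 prior degrees of freedom), with Benjamini-Hochberg adjustment over all genes that one or the other group showed well above background in both replicates; an adjusted p under 0.05 was a call. The fitting code was run on simulated arrays for IRF8KO against WT GMP alone, with no differences in brightness between arrays. That run does not check the scaling or the other comparisons. For each comparison the text names the 4 largest called changes in each direction without overlap, besides core subunits, isoforms, the widest and narrowest ranges and, in other lists, the 2 largest changes in each direction; other members named with their change in neutrophils were chosen after their values were seen. The members and lists were chosen with earlier results of these data known.

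Alternatives were quantile normalization, normexp with offset 50 (on the median signal and background, since no mean signal was used here), array medians, a percentile over the probes that every array detected, the mean of a gene's probes, no filter on dim probes, fits of 4 arrays, single arrays left out, the replicate number as a block, and the authors' deposited table. That table holds 39429 probes, and its sorted values are the same in every column (median 46.02); it was put on a log2 scale here, and its own scale is not stated in the sources used here. Same-numbered arrays did not deviate together (correlations of -0.136 to 0.048), so the numbers were not taken to pair the arrays. The small number of arrays limits the precision.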

Additional observations from a re-analysis of the deposited data

How the results depend on the processing

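Of 1365 gene-level values over 105 gene-and-comparison results, 1258 kept their direction and side of the threshold under the alternatives, 73 lost their call and 34 changed direction. These 105 were chosen for being called in the main fit. They were the largest called changes without overlap in each comparison and the called core subunits. Smaller called changes of other members and results without a call did not enter, so these counts do not describe all members. In IRF8KO against WT GMP, members called lower numbered 20 (normexp), 21 (quantile), 20 (authors' deposited table), 4 (percentile over detected probes), 1 (4 arrays) and 0 (array medians, no filter on dim probes and replicate block), and 0 to 1 without single arrays; members called higher numbered 1 (array medians, 4 arrays) and 1 to 2 without single arrays. In CDP against WT GMP the lower members numbered 11 (normexp), 10 (quantile), 11 (authors' deposited table), 6 (percentile over detected probes), 1 (array medians, no filter, 4 arrays, replicate block) and 1 to 2 without single arrays. In pre-cDC against CDP 2 members were higher under normexp, quantile, the authors' deposited table and the percentile over detected probes; with pre-cDC set against WT GMP instead, a comparison chosen after seeing the data, 16 were higher and 41 lower. In CD8+ cDC against pre-cDC 16 were lower under normexp and quantile and 3 with array medians. In Neu against WT GMP 16 were higher with array medians, and in CD8+ cDC against Neu 14 were lower with array medians and with the percentile over detected probes. The shares of all genes tested moved too over the alternatives that left no array out. Those lower ranged from 3.45% to 14.5% in IRF8KO against WT GMP, 16.0% to 45.5% in CDP against WT GMP and 21.9% to 41.8% in CD8+ cDC against pre-cDC. Those higher in pre-cDC against CDP ranged from 13.4% to 39.6%.

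The members' median minus that of all genes changed sign in IRF8KO against WT GMP without the filter (0.042) and in Neu against WT GMP under normexp (-0.17), quantile (-0.17), the authors' deposited table (-0.30) and no filter (-0.29). In CDP against WT GMP, direction turned for Atp5b (normexp -0.58, quantile -0.65, detected probes -0.14, authors' deposited table, -0.63), Ndufs1 (-0.21, -0.15, -0.016 and -0.15 in the same order), Uqcrc1 (-0.31, -0.32, -0.17, -0.31) and Uqcrc2 (-0.22, -0.25, -0.084, -0.26). It also turned for Ndufv1 (normexp -0.20, quantile -0.17, authors' deposited table, -0.17) and Ndufv2 (quantile -0.091, authors' deposited table, -0.082). In pre-cDC against CDP it turned for Atp5b (quantile 0.070, authors' deposited table, 0.093) and Uqcrc1 (authors' deposited table, 0.020). In CD8+ cDC against pre-cDC it turned for Atp5b (normexp -0.11, quantile -0.16, authors' deposited table, -0.17) and Cox4i1 (-0.17, -0.089, -0.10). In Neu against WT GMP Cox4i1 turned with array medians (-0.089), and in CD8+ cDC against Neu Ndufs7 turned (normexp 0.12, quantile 0.094, authors' deposited table, 0.10). The cause of these changes was not tested. The replicate block changed no other count of members by over 1.5 times. Slide could not be used as a block, since no slide outside the GMP pair and the CD8+ cDC and Neu pair held a second group. Cox8b, Cox7b2, Cox8c and Ndufa4l2 were too dim to be compared.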
